A study of Mus musculus with 6 samples.

Results

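The CLK and SRPK kinases phosphorylate the serine- and arginine-rich (SR) proteins that choose splice sites. The members here were Clk1, Clk2, Clk3, Clk4, Srpk1 and Srpk2, taken as every event under those gene symbols in the deposited splicing table: 67 of 45595 events, and 6 of 9594 genes. Clk1 held 12 of the events, Clk2 12, Clk3 6, Clk4 15, Srpk1 7 and Srpk2 15. By kind they were 42 skipped exons, 9 pairs of mutually exclusive exons, 9 retained introns, 5 choices of acceptor and 2 choices of donor. Many of these events share junction reads, so they are not independent measurements.

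The study compared Neuro-2a (N2a) cells, an established mouse neuroblastoma line, with and without a knockout of hnRNPDL (gene Hnrnpdl), one of the hnRNP proteins that coat nuclear RNA. The labels give 3 wild type and 3 hnRNPDL-KO samples, with no other treatment, and do not say how the knockout was made or whether it is 1 clone. The table arranges 6 libraries as 2 sets of 3, named only as sample 1 and sample 2. Nothing in the table ties either set to a genotype, so every comparison below is set 1 against set 2, and no direction is read as an effect of the knockout. The labels do not say that the 3 samples of a genotype came from separate cultures, so p-values measure only the spread between these libraries.

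Clk kinases sit in the nucleus and move SR proteins out of speckles, the nuclear stores of splicing factors. Srpk kinases sit largely in the cytoplasm, where phosphorylation by them lets SR proteins enter the nucleus. Clk genes are known for regulating their own transcripts: an internal coding exon is skipped or its neighbouring introns are kept, and neither form encodes a full kinase. Introns kept in spliced, polyadenylated transcripts that stay in the nucleus are called detained introns, and those of the Clk genes are textbook examples.

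The alternative exons of the 4 Clk genes are shown first because most of the measurements concern them. Coordinates are on mm10 and sequences are from GENCODE transcripts. Capitals mark the exon, and the lower-case bases are the 22 intronic bases before it and the 6 after it, in the direction of transcription.
Clk1 exon, 91 bases, chr1:58420121-58420211, minus strand: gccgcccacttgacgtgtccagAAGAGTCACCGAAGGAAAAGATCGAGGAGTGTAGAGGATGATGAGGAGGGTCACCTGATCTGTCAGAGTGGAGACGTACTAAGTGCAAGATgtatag
Clk4 exon, 91 bases, chr11:51273078-51273168, plus strand: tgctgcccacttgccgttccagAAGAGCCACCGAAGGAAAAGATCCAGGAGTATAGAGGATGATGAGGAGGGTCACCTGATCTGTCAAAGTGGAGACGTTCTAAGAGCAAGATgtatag
Clk2 exon, 85 bases, chr3:89169618-89169702, plus strand: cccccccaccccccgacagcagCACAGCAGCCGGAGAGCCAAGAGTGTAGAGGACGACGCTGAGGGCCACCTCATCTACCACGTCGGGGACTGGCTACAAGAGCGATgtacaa
Clk3 exon, 97 bases, chr9:57758627-57758723, minus strand: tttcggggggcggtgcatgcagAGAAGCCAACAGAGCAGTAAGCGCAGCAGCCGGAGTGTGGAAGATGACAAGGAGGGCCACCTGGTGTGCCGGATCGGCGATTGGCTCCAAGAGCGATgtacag

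The Clk1 and Clk4 exons matched at 85 of 91 positions, or 93.4%. All 4 exons are coding, and all 4 end in GAT followed by gta. Their 5' splice sites, read as the last 3 exonic and the first 6 intronic bases, matched the vertebrate consensus (A or C, A, G, G, T, A or G, A, G, T) at 4 of 9 positions. Among 2219 retained introns of all genes with a mean of 20 or more reads, the median was 7 matches, and 2.1% had 4 or fewer. Those introns include the ones after the Clk2 and Clk3 exons, and matches were not counted over skipped exons of all genes. The share of C and T in the 20 bases before the AG of the 3' splice site was 45% for Clk3, 65% for Clk1, and 75% for Clk2 and Clk4, beside a median of 75% over those introns. A match count describes the letters only and measures no use of the site.

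Removing each exon from the annotated coding transcript shifted the reading frame. The full-length frame held 483 codons in Clk1, 499 in Clk2, 638 in Clk3 and 481 in Clk4. Without the exon it reached a stop after 135 codons in Clk1, 136 in Clk2, 300 in Clk3 and 134 in Clk4. These stops lay 809, 818, 740 and 809 bases before the last exon junction, respectively. A stop well before the last junction is the known mark of a transcript open to nonsense-mediated decay, the pathway that removes such RNAs; no decay was measured here.

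The inclusion level of an exon is the share, from 0 to 1, of junction reads per form length that include it. The Clk1 exon had levels of 0.739, 0.889 and 0.544 in the 3 libraries of set 1 and 0.664, 0.786 and 0.639 in those of set 2. All 3 levels of set 2 fell within the range of set 1. Means were 0.724 ± 0.173 (SD, n = 3) and 0.696 ± 0.0790 (SD, n = 3), a difference of 0.028 with a standard error (SE) of 0.110. The quasi-binomial test gave an adjusted p of 0.746.

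The paralogous Clk4 exon had a lower level than that of Clk1 in 6 of 6 libraries. Its levels were 0.493, 0.546 and 0.404 in set 1 and 0.495, 0.474 and 0.435 in set 2, with means of 0.481 ± 0.0715 and 0.468 ± 0.0303 (SD, n = 3 each). The sets overlapped, and the difference of 0.0127 had an SE of 0.0448 and a quasi-binomial adjusted p of 0.92.

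The Clk2 exon can start at either of a pair of acceptors 3 bases apart, which gives 88 or 85 bases. The 85-base exon had levels of 0.945, 0.912 and 0.967 in set 1 and 0.922, 0.822 and 0.935 in set 2. The set 2 libraries reached lower, but the sets overlapped. The means were 0.941 ± 0.0278 and 0.893 ± 0.0621 (SD, n = 3 each), and the quasi-binomial adjusted p was 0.746. Without library 2 of set 2 the difference of 0.0483 was 0.013. For the 88-base exon the means were 0.956 ± 0.0211 and 0.912 ± 0.0458 (SD, n = 3 each), and the authors' deposited table gives a p of 0.0187 and an adjusted p of 0.441. Both exons and the intron around them rest on the same skipping reads: 4, 7 and 2 in set 1, and 9, 15 and 5 in set 2.

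The Clk3 exon was included at 0.908, 0.925 and 0.917 in set 1 and at 0.968, 0.921 and 0.904 in set 2. The set 1 libraries all lay inside the range of set 2. The means were 0.917 ± 0.0089 and 0.931 ± 0.0332 (SD, n = 3 each), and the quasi-binomial adjusted p was 0.763.

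Over all 6 libraries the mean levels were ordered Clk3 at 0.924, Clk2 at 0.917, Clk1 at 0.710 and Clk4 at 0.475. Clk2 is given here by its 85-base exon. Its 88-base exon had a mean of 0.934, above that of Clk3. The order was read from these libraries, so it is given with no test. Clk1 was higher than Clk4 in 6 of 6 libraries, by 0.235 ± 0.080 (SD, n = 6). Clk3 was higher than Clk1 in 6 of 6 libraries, by 0.214 ± 0.123 (SD, n = 6). Clk2 was higher than Clk3 in 3 of 6 libraries, with a difference of -0.007 ± 0.058 (SD, n = 6), so these neighbours did not differ beyond their spread.

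**Figure D1:**
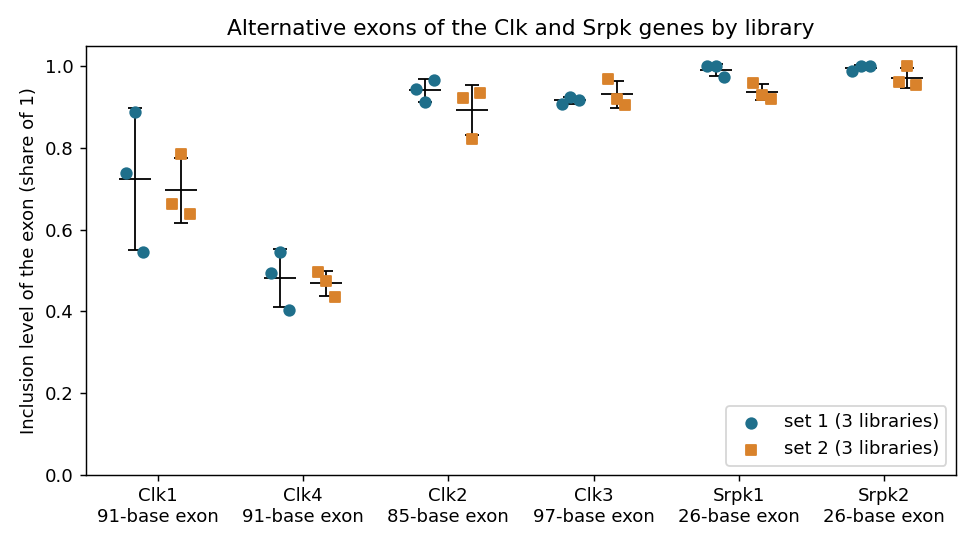
Inclusion level (share of 1) of the alternative exon of each Clk gene and of the 26-base exon of Srpk1 and Srpk2, in each of 3 libraries of set 1 (circles) and 3 of set 2 (squares); dashes are means and bars are 1 SD. The Clk4 exon lies lowest, at 0.404 to 0.546, the Clk1 exon spreads from 0.544 to 0.889, and the sets separate only for Srpk1.

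The introns next to these exons were also read through. In Clk1 a single 1349-base interval, chr1:58419734-58421082, covers the 91-base exon and the introns on both sides. Its retention level was 0.549, 0.810 and 0.510 in set 1 and 0.453, 0.710 and 0.644 in set 2. The sets overlapped, with means of 0.623 ± 0.163 and 0.602 ± 0.134 (SD, n = 3 each) and a quasi-binomial adjusted p of 0.924. This level sets read-through against the exon-skipping junction alone, so transcripts that include the exon do not enter it.

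The same holds for the 1125-base interval of Clk2, chr3:89168924-89170048, and the 2473-base interval of Clk3, chr9:57758351-57760823. In Clk2 the retention level was 0.724, 0.632 and 0.778 in set 1 and 0.561, 0.464 and 0.706 in set 2. It rested on 29 reads per library on average, and held the largest difference in mean level among the tested member events, 0.134 with an SE of 0.0822. The sets overlapped and the quasi-binomial adjusted p was 0.746. The difference was 0.078 without library 2 of set 2 and 0.199 without library 3 of set 2. In Clk3 the level was 0.353, 0.417 and 0.632 in set 1 and 0.630, 0.486 and 0.581 in set 2, with a difference of -0.0985 (SE 0.0943, quasi-binomial adjusted p = 0.767). It was -0.042 without library 1 and -0.181 without library 3 of set 1.

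Introns counted on their own had lower levels. The 276-base intron of Clk3 after the exon had mean levels of 0.181 ± 0.0632 in set 1 and 0.179 ± 0.0412 in set 2 (SD, n = 3 each). The 2100-base Clk3 intron before the exon had means of 0.194 ± 0.0367 and 0.205 ± 0.0504. Clk2 introns of 691 and 346 bases on the 2 sides of its exon had means over the 6 libraries of 0.0696 and 0.0971. An 87-base Clk1 intron further along the gene, chr1:58417180-58417266, ranged from 0.075 in library 2 to 0.197 in library 3 of set 1, and from 0.110 to 0.145 in set 2. A 191-base Clk4 intron, chr11:51275579-51275769, stayed between 0.060 and 0.095 in the 6 libraries. None of these introns passed the test. Further along Clk1, a 167-base coding exon, chr1:58417013-58417179, was included at 0.948 ± 0.0303 and 0.948 ± 0.0272. The donor choice of Clk3, between the 97-base exon and the exon before it, had means of 0.853 ± 0.0201 and 0.877 ± 0.0512.

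Among the 2219 retained introns with a mean of 20 or more reads, the median level was 0.097 and the upper quartile was 0.359. The intervals that span an exon stood at the 81.2nd percentile in Clk2, the 80.5th in Clk1 and the 78.9th in Clk3. Their levels set read-through against exon skipping alone, so these ranks are not on the same footing as those of single introns. The single introns stood between the 42.2nd percentile, for the 691-base intron of Clk2, and the 65.7th, for the 2100-base intron of Clk3. Neither Srpk gene had a retained-intron event in the table.

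**Figure D2:**
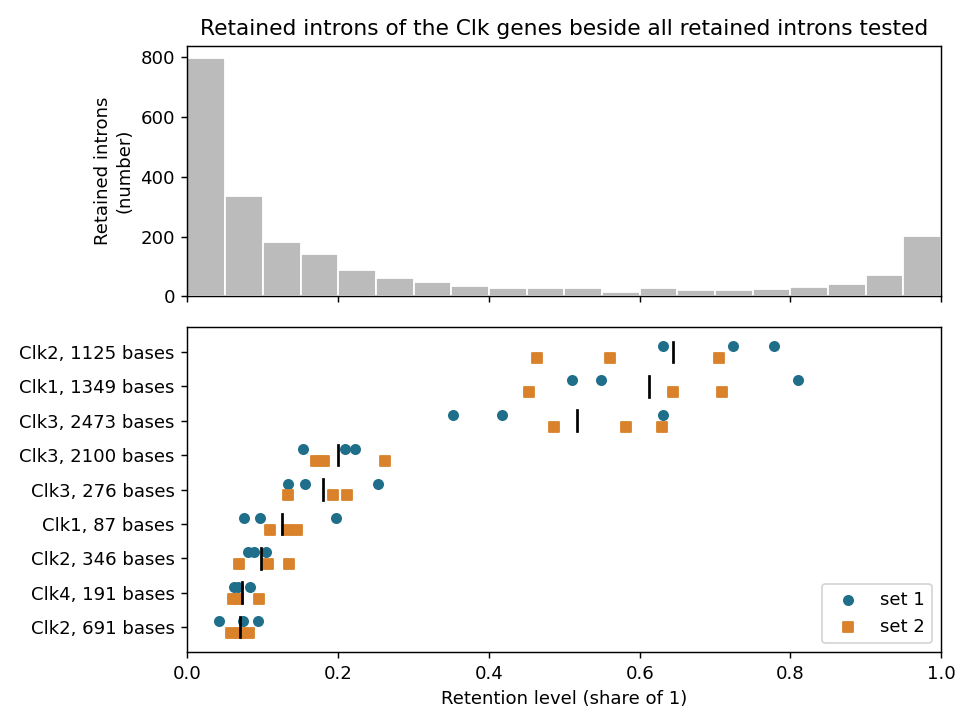
Top, number of retained introns of all genes (2219) by mean retention level in steps of 0.05; bottom, retention level (share of 1) of each Clk interval in the libraries of set 1 (circles) and set 2 (squares), named by gene and length, with the mean of the 6 libraries as a line. The 3 intervals that span an exon lie between 0.353 and 0.810, the single introns between 0.041 and 0.263. Levels of the spanning intervals are set against exon skipping alone.

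Since exon and intron events share reads, the 3 forms at each exon were also put on 1 scale, a measure chosen after the data were seen. It divides inclusion, skipping and read-through reads, each per form length, by their sum. In Clk1 the exon was included in 51.1% ± 12.5 of set 1 and 47.4% ± 7.6 of set 2 (SD, n = 3 each). Skipping took 19.4% ± 11.7 and 20.7% ± 6.2, and read-through took 29.4% ± 4.6 and 31.9% ± 9.2. Skipping in Clk1 ranged from 7.5% in library 2 to 30.9% in library 3 of set 1, so the spread within a set exceeded the difference between sets.

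On this scale Clk2 and Clk3 differed from Clk1 in their inclusion and read-through shares, whose ranges did not meet, while the ranges of skipping overlapped. Over the 6 libraries inclusion averaged 84.3% in Clk2 and 85.3% in Clk3, beside 49.3% in Clk1. The Clk2 shares use the 88-base exon, and reads particular to its 85-base form were not added. Read-through counts only the intervals that span the exon. Single introns beside the exon were left out, with levels of up to 0.1345 in Clk2 and 0.263 in Clk3. Clk1 had no such single-intron event at its exon, so the read-through shares do not compare all intron retention between the genes. Read-through averaged 9.7% and 7.7%, beside 30.7% in Clk1, and its ranges of 7.6% to 11.8% and 4.8% to 12.4% did not reach the Clk1 range of 21.8% to 39.6%. Skipping ranged from 2.2% to 12.5% in Clk2, 3.0% to 8.8% in Clk3 and 7.5% to 30.9% in Clk1. No such shares were formed for Clk4, because the table lists no retained interval over its exon.

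**Figure D3:**
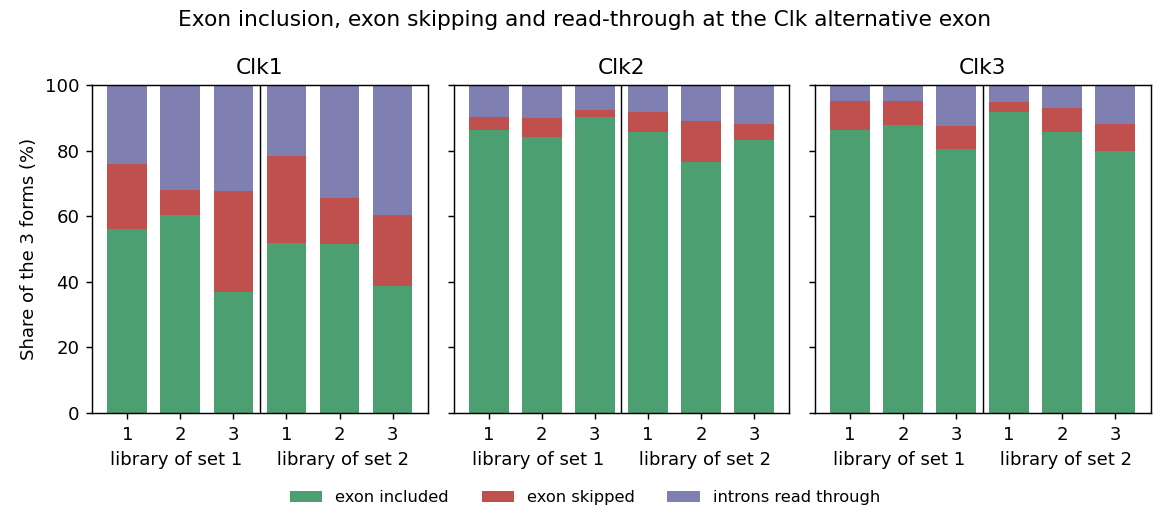
Share (%) of exon inclusion, exon skipping and read-through of the introns around the alternative exon of Clk1, Clk2 and Clk3, stacked to 100% for each of 3 libraries of set 1 and 3 of set 2. Read-through, counted only from the intervals that span the exon, takes 21.8% to 39.6% in Clk1 and at most 12.4% in Clk2 and Clk3. Single introns beside the exons of Clk2 and Clk3 are left out. The Clk2 exon is its 88-base form.

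Retained introns brought early stops. With both introns around the exon kept, the frame ended after 130 codons in Clk1, 152 in Clk2 and 282 in Clk3. The 87-base Clk1 intron gave a stop after 221 codons, and the 191-base Clk4 intron after 279.

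Smaller choices at the Clk2 exon leave the frame intact. The pair of acceptors of the exon differ by 1 codon, shown here with the 3 alternative bases in capitals between the last 20 intronic bases and the next 4 exonic ones.
Clk2 tandem acceptor, chr3:89169595-89169621, plus strand: ccccccccaccccccgacagCAGcaca
The first acceptor, which keeps the CAG, had levels of 0.612, 0.674 and 0.677 in set 1 and 0.575, 0.622 and 0.566 in set 2. Libraries 2 and 3 of set 1 lay above all of set 2, and library 1 lay inside its range. The means were 0.654 ± 0.0370 and 0.588 ± 0.0299 (SD, n = 3 each). The quasi-binomial adjusted p was 0.746, and limma on logit levels gave an adjusted p of 0.791. The exon before it has a similar 3-base choice, with means of 0.829 ± 0.0319 and 0.826 ± 0.0367.

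Clk4 had further alternative exons near its 5' end. A 59-base exon at chr11:51270537-51270595 and a 78-base exon at chr11:51268769-51268846 occur as such only in transcripts annotated as subject to nonsense-mediated decay. On its most-read junctions, the 59-base exon had levels of 0.312, 0.267 and 0.337 in set 1 and 0.340, 0.287 and 0.288 in set 2. The sets interleaved, with means of 0.305 ± 0.0355 and 0.305 ± 0.0305 (SD, n = 3 each). On 2 other pairs of flanking exons its means were 0.415 and 0.357, and 0.980 and 0.90. The last of these rested on a mean of 28 reads, and the authors' deposited table gives it a p of 0.00131 and an adjusted p of 0.0830, beside a quasi-binomial p of 0.175. The 78-base exon had means of 0.107 ± 0.010 and 0.104 ± 0.0206 against the junction with the most reads. A 161-base coding exon, chr11:51267171-51267331, was included at 0.986 in both sets between one pair of neighbours, and at 0.865 ± 0.0772 and 0.833 ± 0.0485 between another. An exon level thus belongs to its pair of flanking exons and not to the exon alone.

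The Srpk genes were mostly constitutive. Mean levels of 0.95 or more were found for 22 skipped-exon events over 18 distinct exons in all members. Srpk2 held 7 of these exons and Srpk1 4, with mean levels between 0.964 and 0.999. Srpk2 had 2 alternative exons upstream in the gene. One of 64 bases, chr5:23616327-23616390, had mean levels of 0.279 ± 0.0246 in set 1 and 0.278 ± 0.0867 in set 2 on its most-read junctions. On others, with a mean of 36 reads, its levels were 0.931 ± 0.0349 and 0.926 ± 0.108. Another of 146 bases, chr5:23629332-23629477, was included at 0.0327 ± 0.0155 and 0.0506 ± 0.0241 on its most-read junctions, and at 0.252 ± 0.119 and 0.251 ± 0.0652 on others with a mean of 29.5 reads.

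Srpk1 held the 1 member event that passed the authors' adjusted threshold, a 26-base coding exon. It is shown with the exon in capitals, followed by the 26-base exon of Srpk2, which is identical at 19 of 26 positions (73.1%).
Srpk1 exon, chr17:28600869-28600894, minus strand: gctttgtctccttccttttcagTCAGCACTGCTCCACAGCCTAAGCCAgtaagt
Srpk2 exon, chr5:23526790-23526815, minus strand: TGAGTACGGCTCCACAGCAAAAACCT
The Srpk1 exon has a 5' splice site with 7 of 9 consensus matches, and 90% of the 20 bases before its acceptor AG are C or T.

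Inclusion of this Srpk1 exon was 1.0, 1.0 and 0.975 in set 1 and 0.960, 0.931 and 0.920 in set 2. The sets did not overlap, and all 3 libraries of set 2 were lower. The means were 0.992 ± 0.0146 and 0.937 ± 0.0208 (SD, n = 3 each), a difference of 0.0544 with an SE of 0.0147. In the authors' deposited table this event has an adjusted p of 0.0256. The quasi-binomial test gave p = 0.0299 with an adjusted p of 0.746, and limma on logit levels gave p = 0.0114 with an adjusted p of 0.791. The difference is also under the 0.10 required for a call.

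The counts behind it were small. Skipping reads numbered 0, 0 and 2 in set 1 and 3, 6 and 6 in set 2, beside 81 to 94 inclusion reads per library. In total they were 2 of 269 reads (0.743%) in set 1 and 15 of 275 (5.45%) in set 2. These shares hold only for this pair of flanking exons and are not shares of all reads of the exon. On another pair the same exon had more inclusion reads, 496, 403 and 403 in set 1 and 510, 456 and 399 in set 2. A count of 0 in 86 and in 91 reads allows a share of up to 3.49% and 3.30%, for counting error only, and reads without molecular identifiers are not independent molecules.

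These skipping reads join exons beyond both the 26-base exon and the neighbouring 214-base coding exon, chr17:28600243-28600456. The 214-base exon therefore carried the same skipping reads, with means of 0.996 ± 0.0074 and 0.968 ± 0.0146 (SD, n = 3 each) and a quasi-binomial p of 0.0309 (adjusted p = 0.746). Against junctions that skip only 1 of the exons, the 26-base exon stood at 1.0 and 0.997, and the 214-base exon at 0.986 and 0.987. The full Srpk1 frame held 648 codons. Without both exons, a loss of 240 bases, it held 568 codons and kept its usual stop. Without the 26-base exon alone it ended after 251 codons, and without the 214-base exon alone after 287. The Srpk2 exon was included at 0.997 ± 0.0061 and 0.972 ± 0.0242, with overlapping sets and a quasi-binomial p of 0.132 (adjusted p = 0.746).

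Over all members, 65 events had enough reads to test, a mean of 20 or more per library and reads in every library. The other 2, both of Clk4, were not tested. The quasi-binomial test called 0 of 65, which does not show that the sets were alike, beside 0.0279% of the 39409 events of the whole table (11 events). At an unadjusted p under 0.05 it passed 2 of 65 (3.08%), both of Srpk1, beside 3.8% of all events. Limma on logit levels passed 2 at an unadjusted p under 0.05, beside 3.29%. In the authors' deposited table, 1 of 67 member events had an adjusted p under 0.05, beside 1.13%, and 0 also differed by 0.10 or more, beside 0.645%. Unadjusted, that table has 5 of 67 under 0.05, beside 7.19%. Sets that did not overlap were found in 2 of 65 events, the same Srpk1 pair, beside 5.93%. All of these shares were at or below those of the whole table, except the authors' adjusted p (1.49% of members) and unadjusted p (7.46%).

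Intermediate levels were common among the members, a count given with no test. A mean level between 0.05 and 0.95 was found in 38 of 65 member events (58.5%), beside 30.3% of all events tested. Clk4 held 12 of the 38, Clk2 8, Srpk2 7, Clk1 and Clk3 5 each, and Srpk1 1. The 38 include all 9 mutually exclusive pairs, whose level sets the reads of 1 exon against those of the other. A pair of mostly included exons can thus have an intermediate level. The Srpk1 event is such a pair, of exons with mean levels of 0.982 and 0.964. Of the 65 events 9 were such pairs and 9 retained introns, beside 4277 and 2219 of 39419 events with 20 or more reads. Within these variable events the median absolute difference between the sets was 0.0137 for the members and 0.0282 for all genes. The median SD within a set was 0.0492 and 0.0482, respectively. Of the 38 differences, 27 were positive (higher in set 1), but shared reads tie many of them together. At an unadjusted quasi-binomial p under 0.05 stood 0 of the 38, beside 6.05% of all variable events. The 9 mutually exclusive pairs belonged to Clk1, Clk4, Srpk1 and Srpk2; 0 were called, and the furthest from 0 was a Srpk2 pair at -0.069.

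**Figure D4:**
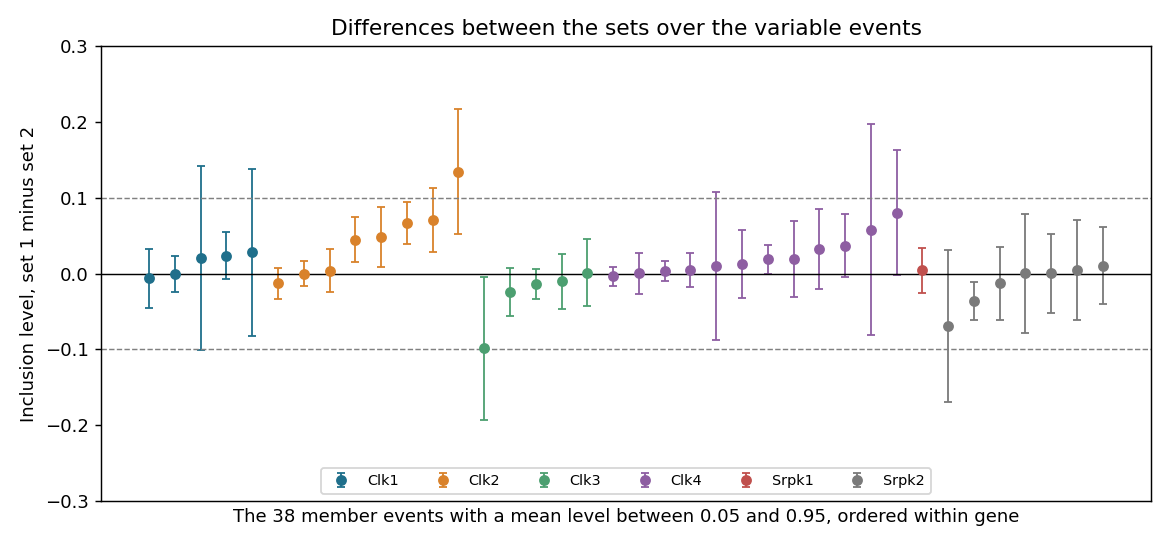
Difference in mean inclusion level (set 1 minus set 2) for the 38 member events with a mean level between 0.05 and 0.95, ordered within gene; bars are 1 SE from the SDs of 3 libraries a set, and dashed lines mark 0.10. A single event, the 1125-base interval of Clk2 at 0.134, passes a dashed line.

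Junction totals served in place of gene counts. The reads of the most-read event of each gene were scaled by the sum over all genes to CPM, the usual depth-corrected count, so a total follows both the amount of RNA and the use of that junction. Clk4 had totals of 66.7, 78.8 and 65.4 CPM in set 1 and 68.4, 91.1 and 105.6 CPM in set 2. Library 1 of set 2 lay among the set 1 libraries. The log2 ratio of set 1 over set 2, on the log2(CPM + 1) scale, was -0.31 (SE 0.161, limma adjusted p = 0.611). Clk2 and Clk3 had log2 ratios of -0.22 (SE 0.165, limma adjusted p = 0.787) and -0.23 (SE 0.154, adjusted p = 0.727). Without library 1 of set 1 the Clk2 ratio was -0.043. Leaving out libraries of set 2 moved the Clk4 ratio between -0.48 without library 1 and -0.17 without library 3.

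Clk1 had 54.6, 53.6 and 40.8 CPM in set 1 and 51.2, 51.0 and 45.9 CPM in set 2. The means of 49.7 and 49.4 CPM were within the spread of the libraries (limma adjusted p = 0.998). Srpk1 varied least, from 147 to 155 CPM in set 1 and from 147 to 154 CPM in set 2 (log2 ratio 0.01, SE 0.102, limma adjusted p = 0.989). Srpk2 ranged from 31.3 to 59.0 CPM and from 45.0 to 64.5 CPM (log2 ratio -0.19, SE 0.220, limma adjusted p = 0.899). Of the 6 genes 0 were called, beside 1.06% of 8285 genes (88), and 0 had sets that did not overlap, beside 14.1%. Fewer cells with a transcript and less RNA per cell cannot be told apart in such libraries.

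**Figure D5:**
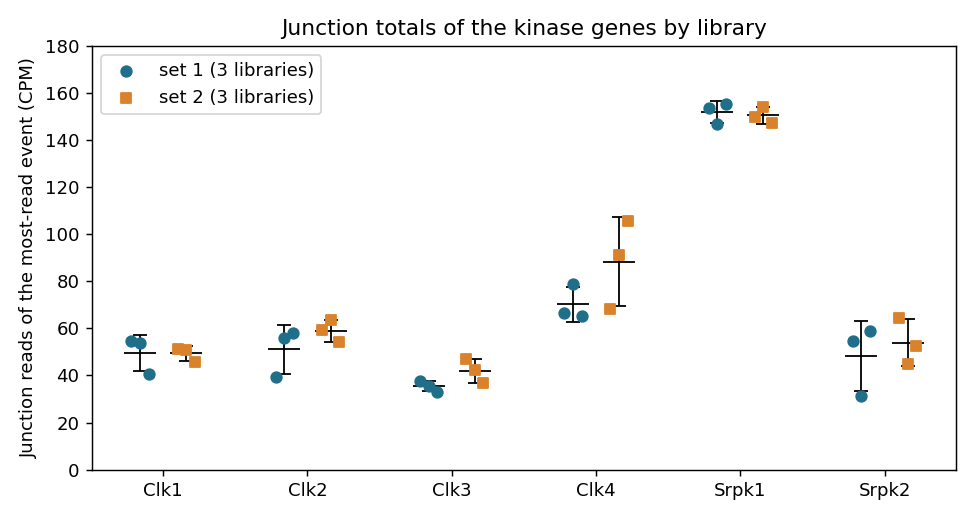
Junction reads of the most-read event of each kinase gene, in CPM, for 3 libraries of set 1 (circles) and 3 of set 2 (squares); dashes are means and bars 1 SD. The sets overlap for every gene, and Clk4 spreads from 65.4 to 105.6 CPM.

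Other genes were ranked by likeness of pattern over the 6 libraries, as a description with no test. The members' pattern used the 4 Clk retained-intron events with 50 or more reads and a mean level of 0.1 to 0.9. Among them was the 1349-base interval of Clk1, which ranged from 0.453 to 0.810 and is set against exon skipping alone. The mean of the 4 events was 0.233, 0.316 and 0.292 in set 1 and 0.222, 0.299 and 0.316 in set 2. Library 1 was the lowest in both sets. Among 439 genes, retained introns of Prph (Pearson r 0.982), Farsa (0.952), Tmem33 (0.943), Rpl13a (0.927) and Pced1a (0.922) followed it most closely. Over 557 retained introns of other genes under the same limits, the median level was 0.208, 0.235 and 0.229 in set 1 and 0.225, 0.245 and 0.249 in set 2, so library 1 was the lowest there too. Library 1 was also the deepest of each set; the part of depth in this pattern was not tested. The junction totals most like that of Clk1 over 6 libraries were those of Oscp1 (r 0.994), Arl2bp (0.991), Foxj3 (0.988), Hddc3 (0.984) and Aurka (0.981).

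Substrates and partners of the kinases were counted by list. Among the SR protein genes, 0 of 53 events and 0 of 12 genes were called. Other kinases and phosphatases that act on splicing factors gave 0 of 87 events and 0 of 18 genes. Partners and speckle scaffolds gave 1 of 108 events, beside 0.0279% of all events, and 0 of 13 genes. That event was an 88-base exon of U2af1, which encodes the small U2AF subunit that reads the 3' splice site AG, at chr17:31654979-31655066. Its levels were 1.0, 0.986 and 0.958 in set 1 and 0.822, 0.910 and 0.877 in set 2, with a quasi-binomial adjusted p of 0.000421. The sets did not overlap; limma on logit levels called 0 events of the whole table, so not this one. Other genes known for detained introns gave 0 of 14 events and 0 of 3 genes. At an unadjusted quasi-binomial p under 0.05 stood 2 of 53 events of the SR protein genes (3.77%), 3 of 87 of the other kinases and phosphatases (3.45%), 13 of 108 of the partners (12.0%) and 2 of 14 of the detained-intron genes (14.3%), beside 3.8% of all events. The median absolute level difference was 0.00204, 0.00259, 0.00443 and 0.00401 in these lists, beside 0.00991 for the kinases and 0.0083 for all events tested.

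Depth, summed over all events, ran from 13501749 to 18185394 junction reads per library, with reads counted once for each event they enter. The targeted gene Hnrnpdl had 399 to 432 CPM in set 1 and 469 to 501 CPM in set 2 (log2 ratio -0.22, limma adjusted p = 0.392). Each set 1 value was under every set 2 value; the test was not passed, and this total was not used to name the sets. Of 20 neuroblastoma and neuron markers 12 were in the table, among them Chga and Snap25. Of these 12 genes 2 were called, both lower in set 1, beside 1.06% of all genes. They were Dbh (log2 ratio -2.37, limma adjusted p = 0.00347) and Chgb (-1.01, adjusted p = 0.0132). The Dbh total rested on 21, 6 and 5 reads in set 1 and 88, 61 and 56 in set 2. Log2 ratios were below 0 for 10 of the 12 genes and above 0 for 2. Of 73 marker events 1, in Mapt, was called, beside 0.0279% of all events. An unadjusted quasi-binomial p under 0.05 was found for 10 (13.7%), beside 3.8% of all events. The glia marker Mbp was at 0.73 to 1.97 CPM and the endothelial marker Pecam1 at 0.23 to 3.68 CPM. No marker of microglia and blood, fibroblasts or epithelium was in the table. A gene is listed there only if it has a splicing event, so absence does not show that a gene was not expressed.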

How the data were processed

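Total RNA of Neuro-2a cells was sequenced in 6 samples, and the authors deposited 1 table of splicing events. It was analysed as an rMATS-style table, per the file headers. Per the submitters' processing notes, tools named without a role were Bowtie2 2.2.3, HISAT2 2.1.0 and HTSeq 0.6.0, with the build mm10; the version of the splicing tool is not given in the sources used here. Deposited cells list, per event, inclusion and skipping junction counts, inclusion levels and form lengths for 3 libraries of each of 2 sets, and the authors' p-value with its adjusted value. Levels recomputed from the counts and form lengths matched the deposited levels within 0.0005.

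Events with a mean of 20 or more reads per library were tested by a quasi-binomial test on the counts, with a dispersion of at least 1, shrunk within each kind of event towards a trend on the reads of the less used form (limma 3.58.1 in R 4.3.3), and Benjamini-Hochberg adjustment over all events. The trend was fitted on events with 5 or more such reads. An event was called at an adjusted p under 0.05 with a level difference of 0.10 or more. Genes were compared by limma on log2(CPM + 1) of their most-read event. The scripts were tested on simulated data. Sequences and reading frames came from GENCODE vM21 (GRCm38, the build named mm10) transcripts; no genome sequence was used.

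The members and gene lists were chosen with earlier results of these data known. Events chosen for description were, per gene and kind of event, the 2 most-read ones with a mean level between 0.05 and 0.95. Any event with an authors' adjusted p or a quasi-binomial p under 0.05 was also chosen. For the mutually exclusive pairs among them only counts and some differences are given. The Clk4 exon of 91 bases and the introns of 1125 and 2473 bases were added after their values were seen. One marker gene is not reported here.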

Additional observations from a re-analysis of the deposited data

How the results depend on the processing

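Under every setting tried, 0 member events and 0 member genes were called. Over the whole table, limma on logit levels called 0 events in place of 11 (1298 against 1497 at an unadjusted p under 0.05). The form of the dispersion prior, varied after the data were seen, gave 64 events along the total count and 13 from events with 1 or more reads of the rarer form. Leaving out a library gave 2 to 19 events and 25 to 287 genes in place of 88, with 19 and 287 without library 1 of set 1; the cause was not tested. Other settings gave 82 to 104 genes. Of 36 single results under 429 alternatives, 380 kept direction and side of the threshold and 49 changed sign, in 23 results. A difference that rounded to 0 could not be counted as a change of sign and stands among the 380. Their smallest adjusted p was 0.187. The Srpk1 junction total was -0.007 with upper-quartile scaling and -0.003 summed over events. No paired analysis was possible because the columns carry no replicate number that ties them to the labels. Low counts limit the precision of the intervals of Clk2 and Clk3 and of the Srpk1 skipping reads.

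Sign changes on leaving out a library are given as the lowest and highest level difference (set 1 minus set 2). In Clk1 they were -0.054 and 0.118 for the 91-base exon, -0.073 and 0.077 for the 1349-base interval, -0.043 and 0.017 for the 87-base intron, and -0.018 and 0.015 for the 167-base exon. In Clk2 they were -0.016 and 0.020 for the tandem acceptor of the exon before, and -0.030 and 0.003 for the 346-base intron. In Clk3 they were -0.028 and 0.004 for the 97-base exon, -0.041 and 0.005 for its alternative 5' splice site, -0.035 and 0.025 for the 276-base intron, and -0.028 and 0.018 for the 2100-base intron. In Clk4 they were -0.020 and 0.051 for the 91-base exon, -0.016 and 0.019 for the 59-base exon, -0.006 and 0.071 for the 161-base exon, -0.011 and 0.007 for the 191-base intron, and -0.014 and 0.018 for the pair of exons of 161 and 59 bases. In Srpk1 the pair of 214 and 26 bases gave -0.019 and 0.023. In Srpk2 the 64-base exon gave -0.031 and 0.050 on its most-read junctions and -0.057 and 0.042 on others, and the pairs of exons gave -0.041 and 0.021 and -0.037 and 0.035. Without a change of sign, the difference ran from 0.078 to 0.199 for the 1125-base interval and from 0.013 to 0.070 and 0.019 to 0.061 for the 85- and 88-base exons of Clk2, and from -0.181 to -0.042 for the 2473-base interval of Clk3. Junction totals without a change of sign ran from -0.319 to -0.043 in Clk2 (-0.128 summed over events), -0.323 to -0.154 in Clk3 and -0.480 to -0.170 in Clk4. Other junction totals (log2) ran from -0.074 to 0.131 in Clk1, -0.003 to 0.037 in Srpk1 and -0.359 to 0.088 in Srpk2.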

Other observations

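Mat2a, which encodes the enzyme that makes S-adenosylmethionine and is known for a detained intron, had a level of 0.494, 0.475 and 0.510 in set 1 and 0.563, 0.551 and 0.567 in set 2 for a 585-base retained intron, chr6:72434396-72434980. The sets did not overlap, on a mean of about 1508 reads per library. The quasi-binomial p was 0.0253 with an adjusted p of 0.746, and the difference of -0.0674 was under the 0.10 required for a call. Its other retained intron, of 253 bases, had means of 0.071 and 0.079 (adjusted p = 0.746).

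Acin1, which encodes a protein of complexes bound to spliced RNA, had 2 overlapping exons called in the authors' deposited table and not by the quasi-binomial test. The 65-base exon, chr14:54653214-54653278, had levels of 0.860, 1.0 and 0.782 in set 1 and 1.0 in each library of set 2, on a mean of 39 reads, and an adjusted p of 0.00386 in that table.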
